A study of Mus musculus with 6 samples.

Results

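Genes that sense foreign RNA and answer to interferon were examined in whole mouse blastocysts that had been cultured with a synthetic small RNA. The set is a list of 30 gene symbols, chosen by their known roles, of which 29 had at least 1 named feature on the array, out of 22485 named genes. Ifi44 had no feature under its name and was not analysed here. For each gene the feature with the highest mean over the 6 arrays was used. Where several features carried the same gene, as in 6 members, the others are described beside it.

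The embryos were of the hybrid strain B6C3F1, flushed from the oviduct on day 2 and taken as blastocysts on day 5 after 72 hours in culture. In the mimic group (n = 3) the medium held 400 nM of a mimic of the microRNA miR-30d, a synthetic RNA that stands in for it, and in the scramble group (n = 3) it held 400 nM of a scrambled RNA tagged with the dye Alexa 488. The design text gives 30 embryos for a condition without saying whether that is for each array, and 50 ng of total RNA was labelled with Cy3 for each array. The dye is named for the scramble group alone, and embryos without any added RNA were not analysed here. Both groups were therefore cultured with foreign RNA, and a reaction they share cannot be seen in a difference between them. Whether either RNA entered the cells was not tested here. In whole embryos, fewer cells of a type and less RNA per cell cannot be told apart.

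Cells recognise foreign RNA in endosomes, through Toll-like receptors, and in the cytosol, through the helicases RIG-I (gene Ddx58) and MDA5 (gene Ifih1), which signal through the mitochondrial adaptor MAVS. These routes activate the factors IRF3 and IRF7, which switch on interferon beta. Secreted interferon then acts through its receptor, JAK kinases and a complex that holds STAT2 and IRF9 on a large group of interferon-stimulated genes, whose products block viral entry, translation and release. Pluripotent mouse cells are known for a weak interferon response compared with differentiated cells.

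The complex with STAT2 and IRF9 binds a DNA element made of a repeated GAAA. The RefSeq promoters (GRCm38.p6, 250 bases before to 50 bases after the start) of 24 members, Ifi44 among them, were searched for GAAANNGAAA and its reverse TTTCNNTTTC, and matches on either strand and overlapping matches were counted. Of these 24 members, 14 (58.3%) held a match, against 1079 of 27025 genes with a promoter in that table (3.99%). The 14 members hold 22 matches, 17 centred before the start and 5 after it. A match describes the letters only. The 5 windows below run from 150 bases before the start to the 30th base from it. They are shown because all 5 carry the element while the mean signals of their chosen probes differ. Those of Bst2, Ddx58 and Oas1a lay above the dim end of the array, a level defined below, and those of Oas1g and Ifit1 did not. Capitals mark the matches.
Bst2, chr8:71537443-71537622, minus strand: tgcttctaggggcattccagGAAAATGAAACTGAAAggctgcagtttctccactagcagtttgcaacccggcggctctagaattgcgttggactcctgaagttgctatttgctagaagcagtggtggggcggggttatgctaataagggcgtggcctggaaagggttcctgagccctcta
Ddx58, chr4:40239796-40239975, minus strand: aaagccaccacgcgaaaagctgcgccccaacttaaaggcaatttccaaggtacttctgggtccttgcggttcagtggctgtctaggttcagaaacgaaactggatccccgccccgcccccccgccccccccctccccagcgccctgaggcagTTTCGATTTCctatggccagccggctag
Oas1a, chr5:120907496-120907675, minus strand: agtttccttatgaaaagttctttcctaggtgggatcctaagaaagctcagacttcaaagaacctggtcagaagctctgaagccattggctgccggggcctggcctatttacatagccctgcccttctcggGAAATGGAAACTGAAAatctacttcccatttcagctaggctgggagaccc
Oas1g, chr5:120887584-120887763, minus strand: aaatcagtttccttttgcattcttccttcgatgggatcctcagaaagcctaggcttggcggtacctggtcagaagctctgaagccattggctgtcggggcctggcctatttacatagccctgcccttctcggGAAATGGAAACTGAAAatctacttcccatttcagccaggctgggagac
Ifit1, chr19:34640739-34640918, plus strand: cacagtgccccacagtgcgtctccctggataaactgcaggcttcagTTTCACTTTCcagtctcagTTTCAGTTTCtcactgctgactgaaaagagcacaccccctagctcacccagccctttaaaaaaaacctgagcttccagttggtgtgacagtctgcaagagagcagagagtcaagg

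In Bst2, Oas1a and Oas1g the matches overlap and form a run of 16 bases, and the run of Oas1a is the same, letter for letter, as that of Oas1g. The whole promoters of these neighbouring paralogs are 85.3% identical over 306 aligned columns. In Ifit1 the 2 matches are separate and lie on the other strand, beginning 104 and 85 bases before the start, while the match of Ddx58 lies just after its start. The match was present in 6 of 10 members above the dim end of the array, as defined next, and in 8 of 13 members at the dim end that had a promoter in the table. Irf3, Mavs, Irf9 and Oasl1 were above the dim end with no match in these windows.

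**Figure D1:**
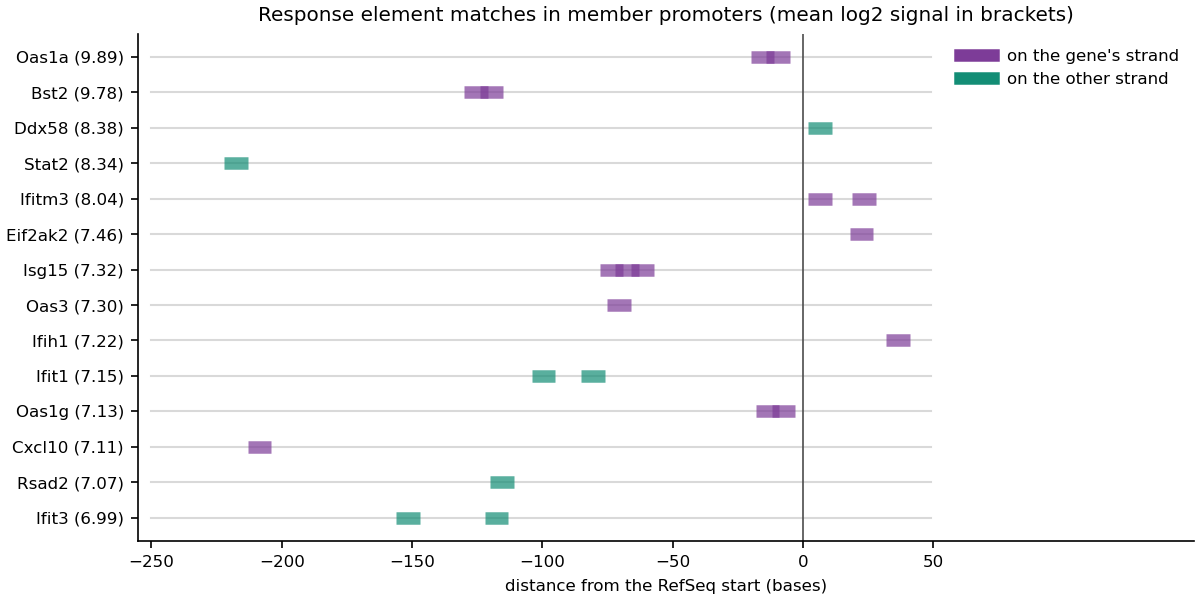
Positions of the element in the promoters of the 14 members that hold it, in bases from the RefSeq start, coloured by strand, with each gene's mean log2 signal over 6 arrays in brackets. Overlapping bars are overlapping matches, as in Oas1a, Oas1g, Bst2 and Isg15.

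A member is called above the dim end here if the mean log2 signal of its probe exceeded 7.45, the median of all 33026 named features, and at the dim end otherwise. On that scale 10 members (34.5% of 29) lay above the dim end, namely Irf3, Oas1a, Bst2, Mavs, Ddx58, Stat2, Ifitm3, Irf9, Oasl1 and Eif2ak2. Of all named genes 51.8% did. The other 19 members had means from 6.99 to 7.36, close to the median of 7.20 over features without a gene name. Just above and just below the line were Eif2ak2, with a mean of 7.46, and Ifnb1, with 7.36. Brightness also depends on the sequence of a probe, so it does not rank transcripts of different genes by amount.

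The members at the dim end are Ifnb1, Isg15, Tlr3, Oas3, Ifih1, Dhx58, Rtp4, Oas2, Usp18, Ifit2, Ifit1, Mx2, Oas1g, Irf7, Cxcl10, Mx1, Rsad2, Oasl2 and Ifit3. They include interferon beta, the chemokine Cxcl10, the inducible factor Irf7, and the Ifit and Mx genes. Their 114 readings ran from 6.50 to 8.29, and 12 of these readings exceeded 7.45. Of those 12, 6 were on mimic replicate 1, 1 on mimic replicate 3, 3 on scramble replicate 1 and 2 on scramble replicate 3. For 8 of the 19 genes no array exceeded 7.45.

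**Figure D2:**
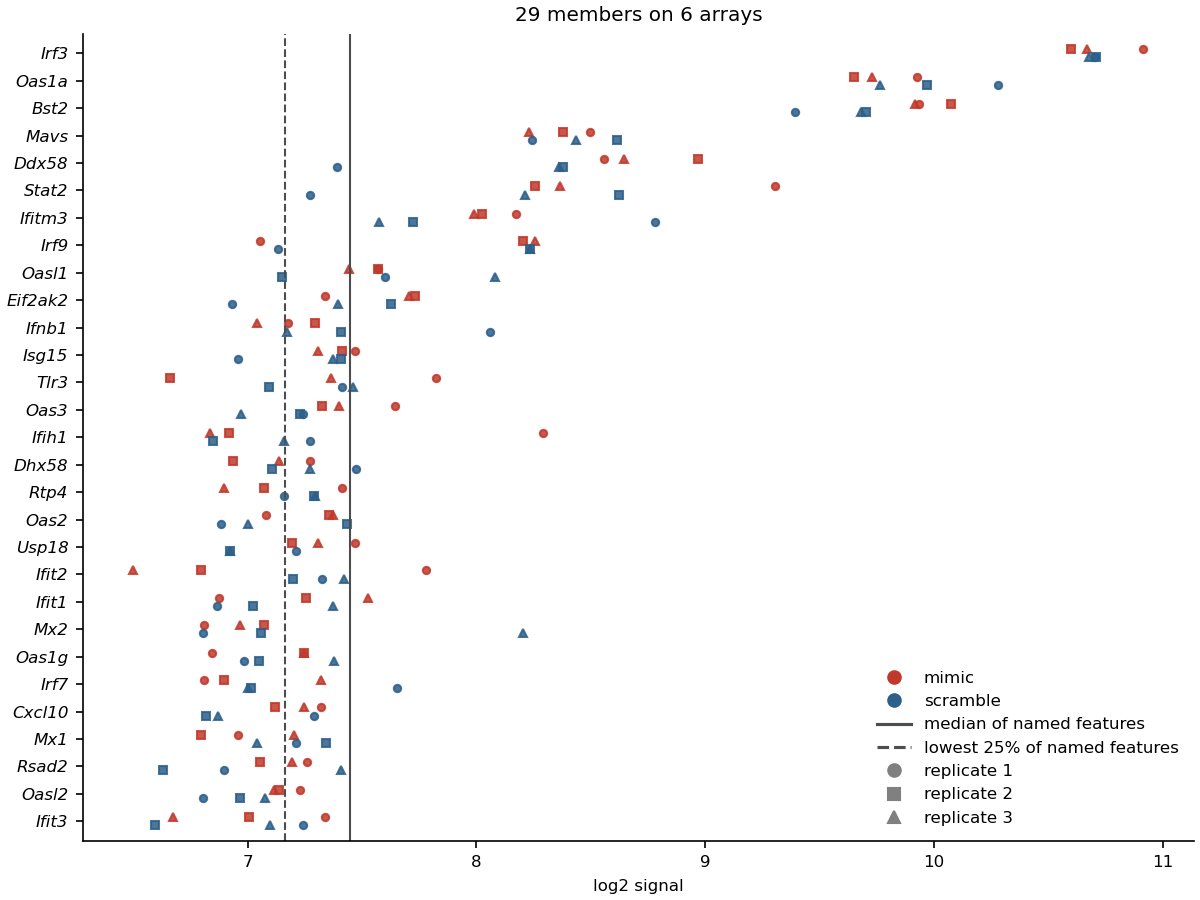
Log2 signal of the chosen probe of 29 members on each of 6 arrays, mimic in red above scramble in blue, with replicate numbers as symbols. The solid line is the median of named features (7.45) and the dashed line the lowest 25% (7.16); 19 members have their mean left of the solid line, and a few isolated points of these genes reach beyond it.

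Markers checked the tissue. Every marker on the lists for trophectoderm (8 of 8), inner cell mass and epiblast (6 of 6) and primitive endoderm (6 of 6) was above the dim end. Of markers for other cells, 2 of 9 leukocyte and macrophage genes (Csf1r and Itgam), 0 of 3 erythroid, 1 of 5 oviduct and endometrial (Epcam), 0 of 5 cumulus and 3 of 5 endothelial genes (Pecam1, Cdh5 and Kdr) were above it. The pan-leukocyte gene Ptprc and the macrophage gene Adgre1 were at the dim end. Averaged over the leukocyte list, the log2 signal was 7.47 to 7.95 on the mimic arrays and 7.49 to 7.97 on the scramble arrays. Over the endothelial list it was 7.94 to 8.99 on the mimic arrays and 7.86 to 8.20 on the scramble arrays, and the part of such cells in the values below was not tested.

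Both arrays with replicate number 1 scattered more than the other 4 among features of the same gene at levels of 7.5 to 8.5. Ifitm3, whose product blocks the entry of enveloped viruses and which also marks early germ cells, shows this directly, since 10 features on the array carry its name. Within mimic replicate 1 these 10 features ran from 7.50 to 8.94 (SD 0.51), and within mimic replicates 2 and 3 their SD was 0.12 and 0.18. Within scramble replicate 1 they ran from 6.84 to 8.78 (SD 0.61), and within scramble replicates 2 and 3 their SD was 0.12 and 0.16. Over 52 genes with 10 features and a mean level of 7.5 to 8.5, the median SD was 0.50 on mimic replicate 1 and 0.59 on scramble replicate 1, against 0.10 to 0.21 on the other 4 arrays. Over 41 such genes with a mean above 10 it was 0.18 to 0.25 on all 6. A single reading at a level of 7.5 to 8.5 was thus less precise on either replicate 1 array than on the rest, and the scatter of genes at the dim end was not measured in this way. These 2 arrays also held the fewest distinct values over the 45220 features, 2683 on mimic replicate 1 and 2108 on scramble replicate 1. For several genes below, values without both of these arrays are also given, and why they moved was not tested.

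**Figure D3:**
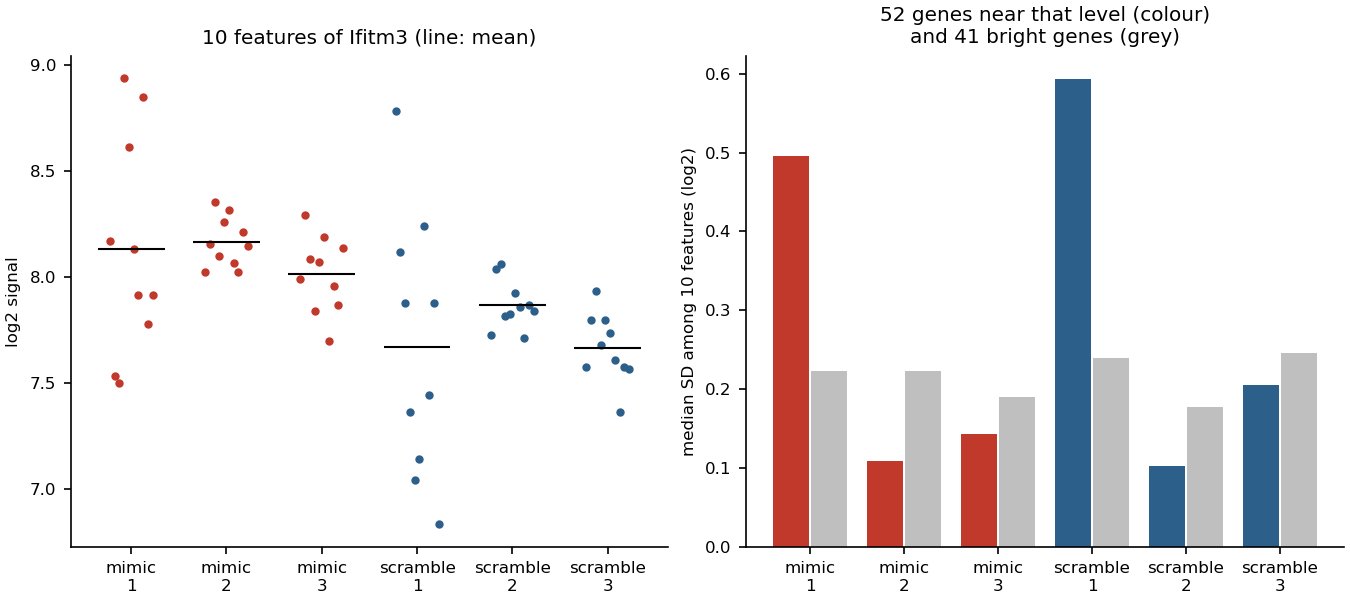
Left, log2 signal of the 10 features of Ifitm3 on each array with their mean as a line. Right, bars from 0 give the median SD among 10 features for 52 genes at a level of 7.5 to 8.5 (coloured) and for 41 genes above 10 (grey); the coloured bar is highest on mimic replicate 1 (0.50) and scramble replicate 1 (0.59).

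The comparison of mimic with scramble asks whether these transcripts differed between embryos given the miR-30d mimic and embryos given a control RNA. The dye is named for the control alone, so effects of miR-30d and of the dye cannot be told apart. No member passed the test. Of 20 members whose probes exceeded the lowest 25% of features (7.16), limma called 0 at an adjusted p of 0.05, against 0 of 17399 genes tested (0%), and the smallest adjusted p of a member was 0.972. At an unadjusted p under 0.05 there was 1 member of 20, Bst2, against 3.17% of all genes. In mimic embryos 11 members were higher and 9 were lower. Their log2 differences had a median of 0.03, beside 0.02 over all genes. All 20 log2 differences lay between -0.38 and 0.68, and 19 of them, all but that of Ddx58, lay between the 2.5th and 97.5th percentiles of all genes (-0.61 and 0.63). None exceeded 2-fold, as 0.943% of all genes did, but the median standard error of 0.26 left wide intervals, which reached from -1.05 to 1.60.

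**Figure D4:**
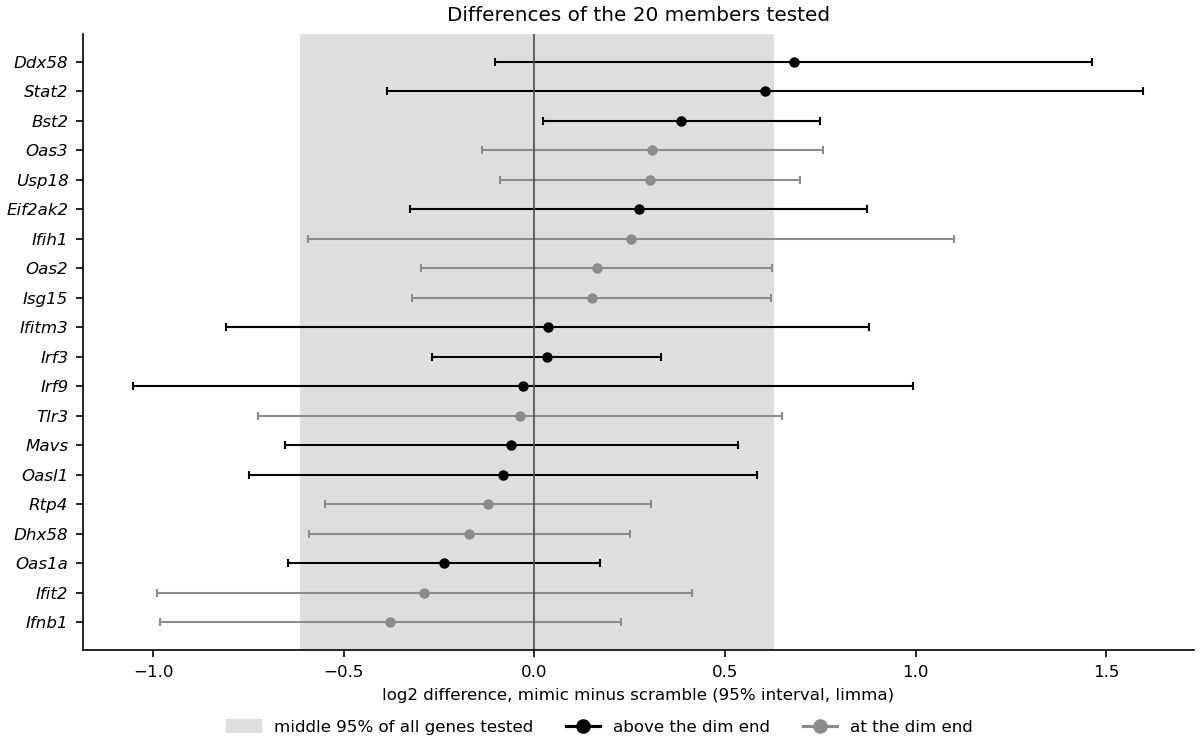
Log2 difference, mimic minus scramble, of the 20 members tested with 95% intervals from limma; black points are members above the dim end, grey points members at the dim end, and the band spans the 2.5th to 97.5th percentiles of all genes. The interval of Bst2 (0.02 to 0.75) alone leaves out 0, before any adjustment.

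The values of mimic and scramble arrays did not overlap in 3 of the 20 members, Bst2, Ddx58 and Oas3, against 9.70% of all genes, and in all 3 the mimic values were the higher, as in 5.58% of all genes. For each of these genes the exact permutation test (two-sided) gave p = 0.1, and groups of 3 can give no smaller value.

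**Figure D5:**
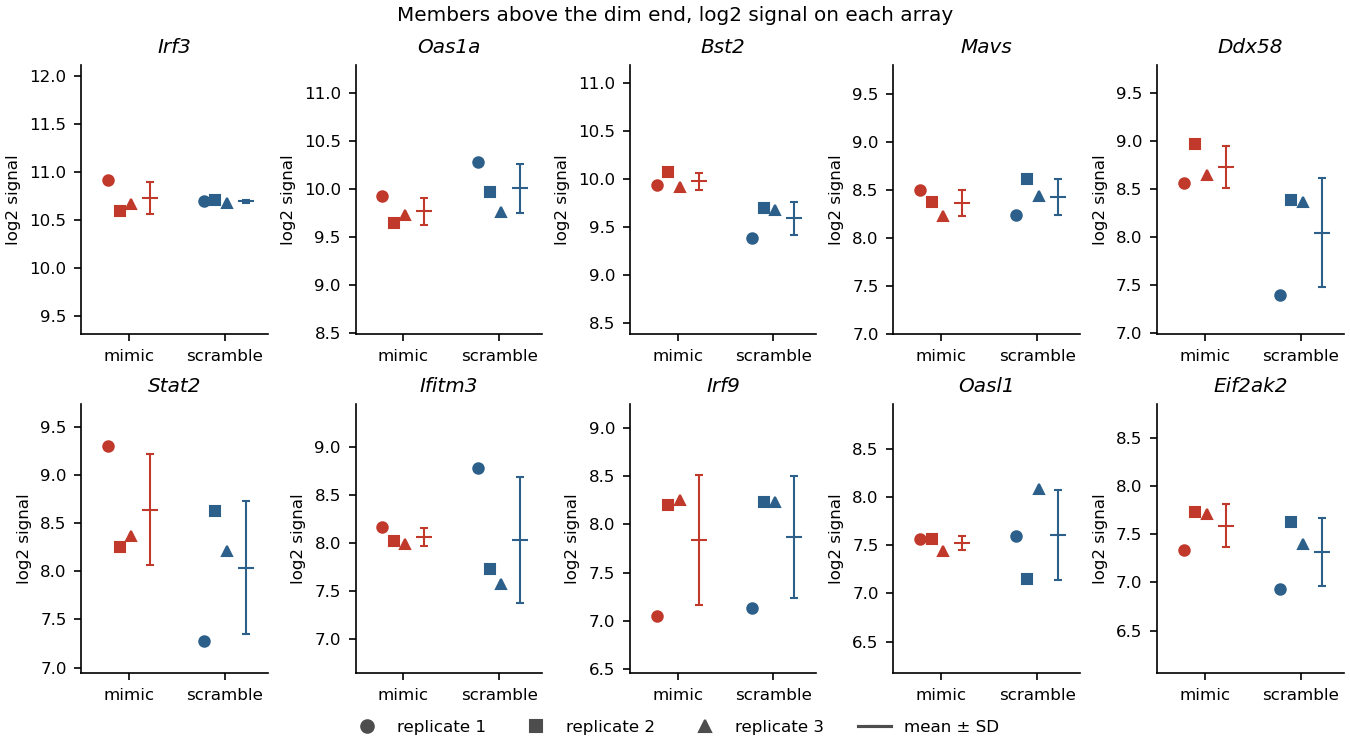
Log2 signal of the 10 members above the dim end on each array, mimic left of scramble, with replicate 1 as circles, 2 as squares and 3 as triangles. Every panel spans the same height, centred on the mean of its gene; mimic and scramble points separate fully in Bst2 and Ddx58 alone.

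Among the RNA sensors, Ddx58, which encodes the sensor of RNA with a triphosphate end RIG-I, had log2 signals of 8.56, 8.97 and 8.65 on mimic arrays and of 7.39, 8.38 and 8.36 on scramble arrays. Scramble replicate 1 stands far below the others, and the remaining scramble values also lie below the lowest mimic value. Its means were 8.72 ± 0.22 in mimic embryos and 8.04 ± 0.57 in scramble embryos (SD, n = 3 each), so that mimic exceeded scramble by 0.68 in log2 (SE 0.34, limma unadjusted p = 0.0811, adjusted p = 0.972). Leaving out scramble replicate 1 gave 0.35, and leaving out both replicate 1 arrays gave 0.44. A second feature of Ddx58, at a mean of 7.34, had a log2 difference of 0.10 with overlapping groups.

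Ifih1, which encodes MDA5, the sensor of long double-stranded RNA, read 8.29, 6.92 and 6.83 on mimic arrays and 7.27, 6.85 and 7.16 on scramble arrays. The reading of mimic replicate 1 was isolated, and a second feature read 7.24 on that array. That second feature had a log2 difference of -0.0852 with overlapping groups. For the chosen feature of Ifih1 the log2 difference was 0.25 (SE 0.37) with all arrays and -0.22 without mimic replicate 1. Dhx58, which encodes their regulator LGP2, read 7.27, 6.93 and 7.14 on mimic arrays and 7.47, 7.11 and 7.28 on scramble arrays, a log2 difference of -0.17 (SE 0.18) that was -0.076 without scramble replicate 1, -0.080 without mimic replicate 2 and -0.26 without scramble replicate 2. Tlr3, the endosomal receptor for double-stranded RNA, read 7.83, 6.66 and 7.36 on mimic arrays and 7.41, 7.09 and 7.46 on scramble arrays, with its highest and lowest readings both in the mimic group. Its log2 difference was -0.04 (SE 0.30).

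The adaptor and the first transcription factor of the pathway were above the dim end on all 6 arrays. Mavs, the mitochondrial adaptor of RIG-I and MDA5, read 8.50, 8.38 and 8.23 on mimic arrays and 8.24, 8.61 and 8.44 on scramble arrays. Its groups overlap, with a log2 difference of -0.06 (SE 0.26, 95% interval -0.66 to 0.53). Irf3, the factor that is present before any stimulus, read 10.91, 10.60 and 10.67 on mimic arrays and 10.70, 10.71 and 10.68 on scramble arrays. It had the narrowest interval of the 20 members, with a log2 difference of 0.03 (SE 0.13, 95% interval -0.27 to 0.33). Irf7, its inducible relative, was not tested because it lay in the lowest 25% of features, at means of 7.01 ± 0.27 in mimic embryos and 7.22 ± 0.37 in scramble embryos (SD, n = 3 each).

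Stat2 and Irf9 encode parts of the factor that interferon activates, and both varied most on the replicate 1 arrays. Stat2 read 9.30, 8.25 and 8.37 on mimic arrays and 7.27, 8.62 and 8.21 on scramble arrays. Its highest reading was on mimic replicate 1 and its lowest on scramble replicate 1, and the log2 difference of 0.60 (SE 0.43) became -0.11 without both of them. Irf9 read 7.05, 8.21 and 8.25 on mimic arrays and 7.13, 8.24 and 8.23 on scramble arrays. Both replicate 1 arrays were lower by more than a log2 unit, and the log2 difference was -0.03 (SE 0.45) with all arrays and -0.0042 (SE 0.16) without those 2.

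The ligands among the members, Ifnb1 and Cxcl10, had means at the dim end. Ifnb1, interferon beta, read 7.17, 7.29 and 7.04 on mimic arrays and 8.06, 7.41 and 7.17 on scramble arrays. Scramble replicate 1 gave its only reading above 7.45, and the log2 difference of -0.38 (SE 0.26) was -0.12 without that array. Cxcl10, a chemokine that interferon induces, read 7.32, 7.12 and 7.24 on mimic arrays and 7.29, 6.82 and 6.87 on scramble arrays. It was below 7.45 on all 6 arrays and was not tested.

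Among the effectors that act on RNA or on translation, Eif2ak2, which encodes the kinase PKR that halts translation when it binds double-stranded RNA, read 7.34, 7.73 and 7.71 on mimic arrays and 6.93, 7.63 and 7.40 on scramble arrays. The groups overlap, and its log2 difference of 0.27 (SE 0.26) was 0.08 without scramble replicate 1. The Oas genes encode synthetases whose short adenylate chains activate RNase L. Oas1a read 9.92, 9.65 and 9.73 on mimic arrays and 10.28, 9.97 and 9.76 on scramble arrays, with a log2 difference of -0.24 (SE 0.18) that was -0.10 without scramble replicate 1. Its second feature read much lower, from 6.99 to 8.33 on mimic arrays and from 7.26 to 8.35 on scramble arrays, so the 2 probes of this gene disagree on its brightness.

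The probe of Oas1g, whose promoter carries the same element as Oas1a, read 6.85, 7.25 and 7.24 on mimic arrays and 6.98, 7.05 and 7.38 on scramble arrays. Its log2 difference was -0.0255. A second feature of Oas1g, at a mean of 7.01, had a log2 difference of 0.136, and the groups overlap in both features. The Oas1 genes are close paralogs, and whether a probe also reads a relative was not tested. Oas3 read 7.64, 7.33 and 7.40 on mimic arrays and 7.24, 7.23 and 6.97 on scramble arrays. These groups do not overlap, but the difference of 0.31 (SE 0.20, limma unadjusted p = 0.151) sits at the dim end and was 0.22 without mimic replicate 1. Oas2 read 7.08, 7.35 and 7.38 on mimic arrays and 6.88, 7.43 and 7.004 on scramble arrays, a log2 difference of 0.16 (SE 0.20). That of Oas2 was 0.052 without scramble replicate 1 and 0.33 without scramble replicate 2.

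The Oas-like gene Oasl1, whose mouse product restrains translation of Irf7, read 7.57, 7.57 and 7.45 on mimic arrays and 7.60, 7.15 and 8.08 on scramble arrays. Scramble holds both its highest and its lowest reading, and the log2 difference was -0.08 (SE 0.29). Oasl2 was dimmer, at means of 7.16 ± 0.06 in mimic embryos and 6.95 ± 0.14 in scramble embryos (SD, n = 3 each), and was not tested. Every mimic value of Oasl2 lies above every scramble value, and none of its readings exceeded 7.45. The Ifit genes encode proteins that bind viral RNA ends or hinder translation, and all 3 members were at the dim end. Ifit2 read 7.78, 6.80 and 6.50 on mimic arrays and 7.33, 7.20 and 7.42 on scramble arrays, so the mimic group spans both extremes. Its log2 difference was -0.29 (SE 0.31), and -0.66 (SE 0.21, limma unadjusted p = 0.0112, adjusted p = 0.852) without both replicate 1 arrays. With 1 array left out it ranged between -0.66 (mimic replicate 1 left out) and -0.026 (mimic replicate 3 left out). Ifit1 read 6.88, 7.26 and 7.53 on mimic arrays and 6.87, 7.03 and 7.37 on scramble arrays, and Ifit3 had means of 7.01 ± 0.33 in mimic embryos and 6.98 ± 0.34 in scramble embryos (SD, n = 3 each).

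Bst2, which encodes tetherin, a membrane protein that holds budding viruses at the cell surface, had the smallest p of the 20 members. It read 9.94, 10.08 and 9.92 on mimic arrays and 9.39, 9.70 and 9.68 on scramble arrays. Every mimic value lies above every scramble value, and scramble replicate 1 is the lowest. The means were 9.98 ± 0.09 in mimic embryos and 9.59 ± 0.17 in scramble embryos (SD, n = 3 each), a 1.31-fold difference or 0.39 in log2 (SE 0.16, limma unadjusted p = 0.0403, adjusted p = 0.972). With 1 array left out the difference ranged between 0.29 (scramble replicate 1 left out) and 0.44 (scramble replicate 2 left out), and it was 0.31 when both replicate 1 arrays were left out.

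For Ifitm3 the choice of feature decided the value. Its brightest feature read 8.17, 8.02 and 7.99 on mimic arrays and 8.78, 7.73 and 7.58 on scramble arrays, with a log2 difference of 0.035 (SE 0.37). The reading of 8.78 was the highest of the 10 features on scramble replicate 1, whose mean was 7.67. Averaged over the 10 features, Ifitm3 had 8.13, 8.17 and 8.01 on mimic arrays and 7.67, 7.87 and 7.66 on scramble arrays, and these groups do not overlap. That gives 8.10 ± 0.08 in mimic embryos and 7.73 ± 0.12 in scramble embryos (SD, n = 3 each), with mimic higher by 0.37 in log2 (SE 0.23, limma unadjusted p = 0.138, adjusted p = 0.985, and exact permutation p = 0.1). Feature by feature the log2 differences ran from -0.0097 to 0.77, with 9 of 10 above 0. The mean of a gene's probes was among the listed alternatives for every gene, and the closer look at the 10 features of Ifitm3 was added after their values had been seen. For the mean of a gene's probes, only probes above the lowest 25% of features were averaged. With that mean for every gene, 1 member of 20, again Bst2, had an unadjusted p under 0.05, against 3.03% of all genes.

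The other membrane and antiviral effectors were dim. Rtp4, a chaperone of membrane receptors, read 7.41, 7.07 and 6.89 on mimic arrays and 7.16, 7.29 and 7.30 on scramble arrays, with a log2 difference of -0.12 (SE 0.19). For Rtp4 this was -0.26 without mimic replicate 1, -0.0046 without mimic replicate 3 and -0.31 without both replicate 1 arrays. Mx1 and Mx2, dynamin-like GTPases, and Rsad2, which encodes the antiviral enzyme viperin, lay in the lowest 25% and were not tested. Of their readings, 8.20 for Mx2 on scramble replicate 3 was the only one above 7.45. Over all 9 untested members the log2 differences ran from -0.41 to 0.24, with 5 higher and 4 lower. The groups did not overlap in 1 of the 9, Oasl2, against 9.70% of all genes tested.

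Isg15 encodes a ubiquitin-like protein that is attached to other proteins, and Usp18 the protease that removes it and also damps the interferon receptor. Isg15 read 7.47, 7.41 and 7.31 on mimic arrays and 6.96, 7.41 and 7.37 on scramble arrays. Its log2 difference of 0.15 (SE 0.21) was 0.0058 without scramble replicate 1, and its second feature had -0.05. Usp18 read 7.47, 7.19 and 7.31 on mimic arrays and 7.21, 6.92 and 6.92 on scramble arrays, a log2 difference of 0.30 (SE 0.17, limma unadjusted p = 0.115, adjusted p = 0.972). On mimic replicate 1 the chosen probes of these 2 genes held the identical value, as happens where an array has few distinct values.

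The replicate number as a block moved the count at an unadjusted p under 0.05 to 2 members of 20, Bst2 (unadjusted p = 0.0231) and Ddx58 (unadjusted p = 0.0359), against 7.24% of all genes, and no member passed the adjusted threshold in limma (smallest adjusted p = 0.64). Without both replicate 1 arrays 2 members of 20, Ifit2 and Ddx58, had an unadjusted p under 0.05, against 5.75% of all genes, and 0 passed the adjusted threshold. In that setting 7 members were higher in mimic embryos and 13 lower. The median of their log2 differences was then -0.08, beside 0.03 over all genes.

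No other gene of the pathway passed the test either. Of 78 further genes listed, 62 passed the filter on dim probes. In limma 0 of the 62 were called in either direction, 0 had an unadjusted p under 0.05, 34 were higher and 28 lower, and the log2 differences had a median of 0.06. Over all 17399 genes 0 were called, 3.17% had an unadjusted p under 0.05, 9254 were higher and 8145 lower, and the median was 0.02. The 2 groups were fully separate in 5 of the 62 (8.06%), 4 with mimic above and 1 with mimic below, against 9.70% of all genes. Of the receptor and JAK-STAT genes 9 of 10 were above the dim end, while 2 of 9 interferon genes were (Ifna4 and Ifnl3). Among genes for sensing, adaptors and kinases 18 of 23 were above it, and among other interferon-stimulated genes 12 of 31.

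The interferon receptor chains Ifnar1 and Ifnar2 had log2 differences of -0.28 (SE 0.30) and -0.05 (SE 0.26), and the receptor kinase gene Jak1 had -0.03 (SE 0.14). The smallest unadjusted p-values among the 62 belonged to Dhx9, Ifna2 and Tbk1. Dhx9, an RNA helicase, read 8.78, 7.96 and 7.83 on mimic arrays and 7.27, 7.74 and 7.30 on scramble arrays, a log2 difference of 0.76 (SE 0.34, limma unadjusted p = 0.0556, adjusted p = 0.972) that was 0.38 without both replicate 1 arrays. Tbk1, the kinase that phosphorylates IRF3, read 8.61, 8.35 and 8.22 on mimic arrays and 7.29, 8.22 and 7.86 on scramble arrays, a log2 difference of 0.60 (SE 0.33) that was 0.24 without both. In both genes every mimic value lies above every scramble value, though in Tbk1 mimic replicate 3 and scramble replicate 2 are equal to 2 decimals.

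Ifna2, an interferon alpha gene with close paralogs that its probe may also read, had 6.58, 7.10 and 7.07 on mimic arrays and 7.75, 7.12 and 7.36 on scramble arrays, all near the dim end (log2 difference -0.50, SE 0.23). Every mimic value of Ifna2 lies below every scramble value. Its difference was -0.16 without both replicate 1 arrays. Adar, which edits double-stranded RNA and keeps the cell's own RNA from being sensed, read 7.87, 8.68 and 8.54 on mimic arrays and 6.97, 8.47 and 8.31 on scramble arrays. In each group the replicate 1 array was the lowest, and the log2 difference of 0.45 (SE 0.45) was 0.22 without both replicate 1 arrays and -0.03 without scramble replicate 1 alone.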

How the data were processed

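Values are log2 signal of 45220 features on 6 arrays as the authors deposited them; the steps of scanning, correction and normalization are unstated (not given in the sources used here). The medians of the arrays lay between 7.367 and 7.376, so a change shared by most genes cannot be seen. Per the labels' protocols, RNA was amplified with T7 polymerase and labelled with Cy3. No detection flags were used here, so a dim probe has no known detection limit, and log2 differences of dim genes can understate true ones. The number of arrays limits the precision.

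Features were named from the platform annotation (33026 with 1 symbol, 0 with several, 12194 with none), and a RefSeq table of GRCm38.p6 gave current symbols by Entrez identifier (98.2% matched). Features in the lowest 25% by mean were left out, and the brightest per gene was tested (17399 genes) with limma 3.58.1 in R 4.3.3 (lmFit, eBayes with a trend, two-sided) and Benjamini-Hochberg adjustment over all genes at 0.05. The fit was tested on simulated data. The titles call the samples biological replicates; separate matings or days are not stated, and p-values then cover only the spread among these arrays, which may be technical.

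Deviations from group means correlated at 0.328, 0.349 and 0.204 between arrays of replicate 1, 2 and 3. By the rule used (all over 0.1) the replicate number was tried as a block. Mimic replicate 3 with scramble replicate 2 reached 0.185, and mimic replicate 2 with scramble replicate 3 reached 0.124. These also exceed 0.1, so the rule cannot tell the pairing by number from one that swaps replicates 2 and 3. Whether the samples were paired is not known. The alternatives tried were no filter, a 50% filter, the replicate block, repeated quantile normalization and no trend. Also tried were the mean of a gene's probes above the lowest 25%, each array left out and both replicate 1 arrays left out. The members and lists were chosen with earlier results of these data known. All members are named. Those tested are given on every array, with Ifnb1, Ifih1, Tlr3, Ifit1 and Cxcl10 where dim. Of the other pathway genes, Ifnar1, Ifnar2, Jak1, Adar and the 3 with the smallest p were taken. Figures were drawn with matplotlib 3.10.9.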

Additional observations from a re-analysis of the deposited data

How the results depend on the processing

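In every alternative 0 members and 0 other pathway genes were called by limma. Over all genes 0 were called, except 1 with the replicate block, which left every member's call as it was. The count at an unadjusted p under 0.05 over all genes was 552, and 1260 with the replicate block, 1000 without both arrays numbered 1, and 362 to 919 with 1 array left out. Among members this count was 1, 2 with the block and without both arrays numbered 1, 0 with no trend, and 0 to 1 with 1 array left out. The members' median log2 difference of 0.03 ranged between -0.040 (mimic replicate 1 left out) and 0.13 (scramble replicate 3 left out), and was -0.082 without both arrays numbered 1. The direction of 13 of 27 named genes turned in at least 1 alternative, in 26 of 341 values, none of which crossed the threshold (smallest adjusted p = 0.64). Without both arrays numbered 1 the turned values were -0.13 for Ifih1, -0.058 for Irf3, -0.030 for Isg15, -0.11 for Stat2 and 0.017 for Ifnar1. With the mean of a gene's probes above the lowest 25% the turned value was 0.0023 for Ifnar1. With 1 array left out the range was -0.026 to 0.72 for Adar, -0.22 to 0.51 for Ifih1, -0.19 to 0.41 for Ifitm3, -0.30 to 0.075 for Ifnar2, -0.061 to 0.096 for Irf3, -0.40 to 0.36 for Irf9, -0.12 to 0.024 for Jak1, -0.15 to 0.031 for Mavs, -0.31 to 0.15 for Oasl1 and -0.31 to 0.27 for Tlr3. The cause of these turns was not tested. Signal over background is unknown here, so members at the dim end show only that no difference was detectable with these probes.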
